A study of Lactuca sativa with 9 samples.

Results

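Of the 38910 genes in the count files, 5 whose products are described as cell-surface or membrane proteins of plant immunity were followed in mature romaine lettuce leaves. They are the short leucine-rich repeat (LRR) gene Lsat_1_v5_gn_7_86140, the LRR receptor-like gene Lsat_1_v5_gn_6_42241, RECEPTOR LIKE PROTEIN 54 (Lsat_1_v5_gn_1_60701), the cysteine-rich receptor-like kinase CRK8 (Lsat_1_v5_gn_1_123460) and the MLO family gene Lsat_1_v5_gn_9_68580. They were chosen by identifier after their values in all 3 genotypes were known, so their own differences are given below as descriptions, with no p for any of them. The first number after gn in an identifier is the chromosome, which places them on chromosomes 7, 6, 1, 1 and 9.

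Leaf RNA was sequenced from the commercial cultivars ‘Okeechobee’, which had the longest shelf-life (LSL), and ‘Manatee’, with an intermediate one (ISL), and from the experimental breeding line 60184, with the shortest (SSL). Each genotype gave 3 libraries. All plants stood in pots in a growth chamber at 22 °C with 16 h of light, carried no transgene and received no treatment, and the first fully expanded leaf was taken at maturity, before harvest or storage. The 3 comparisons of genotypes share libraries, since each genotype enters 2 of them, and each genotype is 1 cultivar or line.

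Plant cells sense microbes at the plasma membrane through receptor-like kinases and receptor-like proteins. Many carry leucine-rich repeats outside the cell that bind a microbial pattern, and in Arabidopsis they signal together with co-receptors of the BAK1 (SERK) family and, for receptor-like proteins that lack a kinase, with the adaptor kinase SOBIR1. Cysteine-rich receptor-like kinases form another large receptor class that responds to pathogens and to oxidative stress. MLO proteins span the membrane 7 times, and in barley, tomato and Arabidopsis the loss of certain MLO genes gives resistance to powdery mildew.

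The EIX2-like LRR gene Lsat_1_v5_gn_6_42241 was also the target of an RT-qPCR assay in the study. Its primers are shown because that assay measures the gene apart from the counts. They were not aligned to the genome, so their place in the gene was not tested. Whether they separate it from Lsat_1_v5_gn_6_42181, the gene just before it with the same description, was not tested either. The primers are copied from the study's primer table, run 5′ to 3′ and have 20 and 19 bases, and the gene is on chromosome 6.
Lsat_1_v5_gn_6_42241 forward: agtgtcctggagatgaagaa
Lsat_1_v5_gn_6_42241 reverse: cggcggttgagaagtaaag

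The libraries held 24108451 to 32840811 reads counted on genes. Levels are CPM, the reads of a gene scaled to library size by the TMM method, and fold changes are log2 fold changes with their standard error (SE) from edgeR. Genes that mark leaf mesophyll (27 genes for the Rubisco small subunit, Rubisco activase and light harvesting proteins) summed to 4073 to 7876 CPM in ‘Okeechobee’, 5269 to 10798 CPM in ‘Manatee’ and 18267 to 45241 CPM in 60184. These markers were thus present in every library. Of the 27, 27 were lower in ‘Okeechobee’ and 22 in ‘Manatee’ than in 60184, beside 31.9% and 27.2% of described genes. Descriptions were given mostly to genes that had been selected on these libraries. In ‘Okeechobee’ against 60184, vascular genes were 5 higher and 5 lower of 11. Genes of other organs were 5 and 4 of 12, and guard cell and epidermis genes 2 of 2 lower. The part of these markers in the values of the 5 genes was not tested. In whole-leaf RNA, fewer cells of a type and less RNA per cell cannot be told apart. Libraries of 1 genotype were also uneven. The SD of the log2 CPM difference between replicates reached 0.85 in ‘Okeechobee’ (1 and 3), 0.78 in ‘Manatee’ (1 and 2) and 0.61 in 60184 (1 and 3). In 60184 the median of the mesophyll sum was 19272 CPM, so its upper end of 45241 CPM rests on 1 library. Replicate 2 gave the highest ‘Manatee’ value for all 5 genes.

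The 5 genes differed in which genotype stood apart. The short LRR gene was high only in ‘Okeechobee’, the EIX2-like gene was highest in ‘Okeechobee’, intermediate in ‘Manatee’ and lowest in 60184, RECEPTOR LIKE PROTEIN 54 was nearly silent in ‘Manatee’, CRK8 was low in 60184 alone, and the MLO gene was nearly silent in ‘Okeechobee’. How many of them lay past the threshold used for all genes (adjusted p under 0.05, edgeR quasi-likelihood F test, Benjamini-Hochberg) was fixed by their choice and is given only as a description. Against 60184, 4 of the 5 were higher and 1 was lower in ‘Okeechobee’, where 16.2% of all 22113 tested genes were higher and 15.3% were lower. In ‘Manatee’ against 60184, 3 were higher and 1 was lower, beside 10.3% and 8.6% of 22062 tested genes. In ‘Okeechobee’ against ‘Manatee’, 3 were higher and 1 was lower, beside 4.54% and 3.74% of 21937 tested genes. All 5 genes had passed the filter on low counts in each comparison, and nothing is read from these counts.

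**Figure D1:**
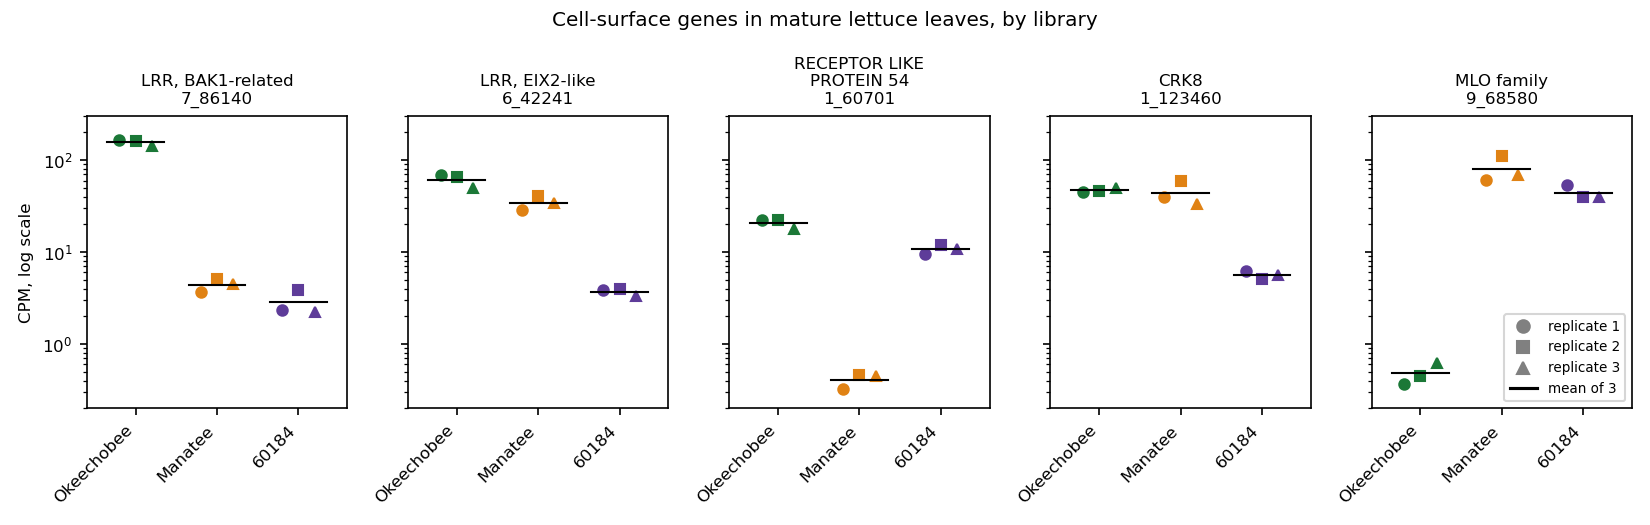
CPM on a log scale (y axis) of the 5 genes in ‘Okeechobee’, ‘Manatee’ and 60184 (x axis), with 1 symbol per library and a line at the mean of 3. Panels carry the last 2 numbers of each identifier, and the near-silent groups are ‘Manatee’ for RECEPTOR LIKE PROTEIN 54 (at most 0.459 CPM) and ‘Okeechobee’ for the MLO gene (at most 0.624 CPM).

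The short LRR gene Lsat_1_v5_gn_7_86140 is described as related to BAK1 and as leucine-rich repeat protein 2, that is, a small LRR protein of the kind that resembles the outer part of SERK co-receptors. It had 5011, 4688 and 3678 reads in the ‘Okeechobee’ libraries, 115, 145 and 139 in those of ‘Manatee’ and 70, 127 and 76 in those of 60184. Only ‘Okeechobee’ stood high, while the libraries of ‘Manatee’ and 60184 overlapped. The level was 158 ± 12.3 CPM in ‘Okeechobee’, 4.43 ± 0.719 CPM in ‘Manatee’ and 2.83 ± 0.938 CPM in 60184 (SD, n = 3 each). The mean in ‘Okeechobee’ was 55.6 times that in 60184, a log2 fold change of 5.80 (SE 0.26), and 35.6 times that in ‘Manatee’, a log2 fold change of 5.18 (SE 0.18). ‘Manatee’ lay 0.65 (SE 0.30) above 60184 on the log2 scale, and their libraries overlapped. The relative spread was 7.81% of the mean in ‘Okeechobee’ and 33.1% in 60184, where replicate 2 was the highest.

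The other genes of the same small list did not pass against ‘Manatee’. The list of short LRR genes and BAK1 partners held 4 genes, none of them described as SOBIR1 or as a full-length SERK kinase. Lsat_1_v5_gn_8_85260, also described as BAK1-related and named here after its values were seen, averaged 483 CPM in ‘Okeechobee’, 407 CPM in ‘Manatee’ and 269 CPM in 60184. It passed the test only against 60184, by a log2 fold change of 0.84 (SE 0.16, adjusted p = 0.0069). The remaining pair are described as BIR1, a kinase that in Arabidopsis binds BAK1 and restrains cell death. Lsat_1_v5_gn_5_176421 was higher in ‘Okeechobee’ than in 60184 by 1.18 (SE 0.15, adjusted p = 0.0012) on the log2 scale. Lsat_1_v5_gn_0_1380 was higher by 6.26 (SE 0.99, adjusted p = 0.0034), with 1176 reads in the ‘Okeechobee’ libraries and 17 in those of 60184, and by 8.56 without 60184 replicate 3 or 5.53 without ‘Okeechobee’ replicate 1. Against ‘Manatee’ it gave 0.95 (SE 1.03, adjusted p = 0.61). In ‘Manatee’ against 60184 it was higher by 5.36 (SE 1.42, adjusted p = 0.039), a call that was lost without any 1 of the 3 libraries of 60184 (highest adjusted p = 0.14). ‘Manatee’ replicate 2 held 519 of the 625 ‘Manatee’ reads, and without it the log2 fold change was 3.26, while it was 7.66 without 60184 replicate 3.

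The EIX2-like gene Lsat_1_v5_gn_6_42241 is described as a receptor-like protein of the disease resistance family. In tomato, EIX2 is the receptor of a fungal xylanase. It had 2068, 1901 and 1271 reads in the ‘Okeechobee’ libraries, 890, 1142 and 1068 in those of ‘Manatee’ and 117, 129 and 111 in those of 60184. No library of one genotype overlapped with another genotype, also in CPM. The level was 61.5 ± 10.3 CPM in ‘Okeechobee’, 34.4 ± 5.91 CPM in ‘Manatee’ and 3.72 ± 0.373 CPM in 60184 (SD, n = 3 each). The mean in ‘Okeechobee’ was 16.5 times that in 60184 (log2 fold change 4.05, SE 0.18), and in ‘Manatee’ 9.25 times (3.22, SE 0.18). The step between the 2 cultivars was smaller, at 1.79 times or a log2 fold change of 0.86 (SE 0.18). Its order followed the order of shelf-life, which with 3 genotypes is a description of these lines.

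RECEPTOR LIKE PROTEIN 54 (Lsat_1_v5_gn_1_60701) belongs to the same class of LRR receptors without a kinase. It had 673, 637 and 462 reads in the ‘Okeechobee’ libraries, 10, 13 and 14 in those of ‘Manatee’ and 285, 387 and 366 in those of 60184. ‘Manatee’ was far below both others, and all 3 genotypes were free of overlap. The level was 20.8 ± 2.44 CPM in ‘Okeechobee’, 0.410 ± 0.0776 CPM in ‘Manatee’ and 10.8 ± 1.22 CPM in 60184 (SD, n = 3 each). ‘Okeechobee’ exceeded ‘Manatee’ by a log2 fold change of 5.68 (SE 0.23), or 50.8 times. ‘Manatee’ lay below 60184 by a log2 fold change of -4.70 (SE 0.25), the mean of 60184 being 26.2 times higher. The difference of 0.96 (SE 0.15) between ‘Okeechobee’ and 60184 was the smallest of the 3, at 1.94 times.

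CRK8 (Lsat_1_v5_gn_1_123460) joins an antifungal-type cysteine-rich domain outside the cell to a kinase inside it. It had 1369, 1314 and 1278 reads in the ‘Okeechobee’ libraries, 1230, 1694 and 1044 in those of ‘Manatee’ and 188, 167 and 192 in those of 60184. The libraries of both cultivars overlapped with each other and lay above every library of 60184. The level was 47.0 ± 2.49 CPM in ‘Okeechobee’, 44.3 ± 13.8 CPM in ‘Manatee’ and 5.70 ± 0.555 CPM in 60184 (SD, n = 3 each). Against 60184 the log2 fold change was 3.04 (SE 0.13) in ‘Okeechobee’ and 2.97 (SE 0.24) in ‘Manatee’, or 8.25 and 7.77 times the mean of 60184. Between the cultivars it was 0.11 (SE 0.22), and -0.05 without ‘Manatee’ replicate 3, so no direction is given. The relative spread of 31.2% in ‘Manatee’ came with 59.8 CPM in replicate 2, against 39.4 and 33.6 CPM in replicates 1 and 3, whereas the spread in ‘Okeechobee’ was 5.29%.

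The MLO gene Lsat_1_v5_gn_9_68580 is described as MLO-like protein 6 and as related to MLO-like protein 12. In Arabidopsis MLO6 and MLO12 act with MLO2 in susceptibility to powdery mildew. It had 11, 13 and 16 reads in the ‘Okeechobee’ libraries, 1892, 3109 and 2146 in those of ‘Manatee’ and 1616, 1279 and 1351 in those of 60184. ‘Okeechobee’ was nearly silent, and no genotype overlapped with another in CPM. The level was 0.481 ± 0.132 CPM in ‘Okeechobee’, 79.8 ± 26.3 CPM in ‘Manatee’ and 44.4 ± 8.11 CPM in 60184 (SD, n = 3 each). The log2 fold change in ‘Okeechobee’ was -6.53 (SE 0.25) against 60184 and -7.35 (SE 0.35) against ‘Manatee’, so the means of 60184 and of ‘Manatee’ were 92.4 and 166 times that of ‘Okeechobee’. ‘Manatee’ lay 0.86 (SE 0.24) above 60184 on the log2 scale, and 0.56 above it without ‘Manatee’ replicate 2, the library with 110 CPM.

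**Figure D2:**
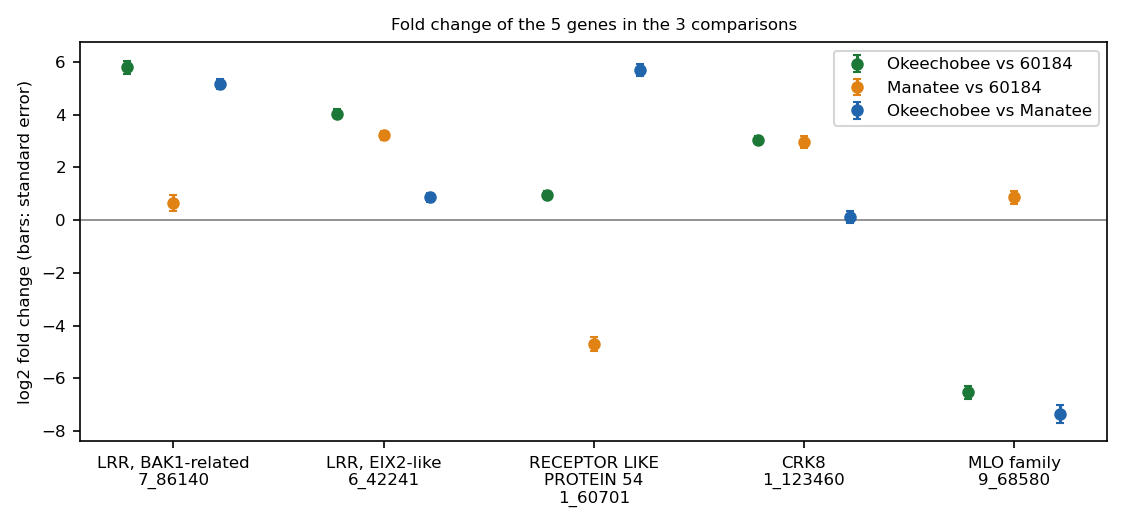
Log2 fold change (y axis, bars show the SE) of the 5 genes (x axis) in the 3 comparisons, with positive values higher in the first-named genotype. Values run between -7.35 for the MLO gene in ‘Okeechobee’ against ‘Manatee’ and 5.80 for the short LRR gene in ‘Okeechobee’ against 60184, and each gene has its own pattern of signs and sizes.

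Where the differences lay among all tested genes restates how the 5 were chosen and is given as a description. The absolute log2 fold change of the short LRR gene in ‘Okeechobee’ against 60184 exceeded that of 98.5% of tested genes, the EIX2-like gene that of 97.6% and CRK8 that of 96.6%. For the MLO gene and RECEPTOR LIKE PROTEIN 54 the largest differences were in ‘Okeechobee’ against ‘Manatee’, above 99.2% and 98.9% of tested genes. The median absolute log2 fold change over all genes was 0.45 in ‘Okeechobee’ against 60184, 0.37 in ‘Manatee’ against 60184 and 0.33 in ‘Okeechobee’ against ‘Manatee’. Libraries did not overlap for 5 of the 5 genes in ‘Okeechobee’ against 60184 and for 4 in each other comparison, where 49.8%, 45.6% and 33.2% of all tested genes did not overlap either.

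Genes next to the MLO gene on chromosome 9 included 2 more of the family, and the 3 genes divided their reads differently in each genotype. Lsat_1_v5_gn_9_68540, described as MLO-like protein 12, is 2 genes before it by identifier. It had 32, 19 and 12 reads in the ‘Okeechobee’ libraries, 367, 807 and 392 in those of ‘Manatee’ and 160, 149 and 199 in those of 60184. Like its neighbour it was low in ‘Okeechobee’, by a log2 fold change of -2.84 (SE 0.34, adjusted p = 0.001) against 60184 and of -4.55 (SE 0.49, adjusted p = 0.0034) against ‘Manatee’. In ‘Manatee’ it was higher than in 60184 by 1.75 (SE 0.36, adjusted p = 0.018), a call lost without any 1 of the libraries of 60184 (highest adjusted p = 0.081).

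Lsat_1_v5_gn_9_68620, the next gene after it and related to MLO-like protein 12, went the other way. It had 7843, 5743 and 4581 reads in the ‘Okeechobee’ libraries, 1745, 2006 and 1415 in those of ‘Manatee’ and 2150, 1838 and 2111 in those of 60184. It was higher in ‘Okeechobee’ by 1.74 (SE 0.18, adjusted p = 6e-04) against 60184 and by 1.92 (SE 0.23, adjusted p = 0.0047) against ‘Manatee’ on the log2 scale. These calls held without any 1 library. Between ‘Manatee’ and 60184 it gave -0.13 (SE 0.18, adjusted p = 0.62).

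Of the summed CPM of the 3 MLO genes, Lsat_1_v5_gn_9_68620 took 99.4% to 99.5% in the ‘Okeechobee’ libraries, 33.9% to 43.6% in those of ‘Manatee’ and 54.8% to 57.7% in those of 60184. The sum itself was 214 ± 42.2 CPM in ‘Okeechobee’, 155 ± 47.1 CPM in ‘Manatee’ and 113 ± 15.6 CPM in 60184 (SD, n = 3 each). The sum was thus not low in ‘Okeechobee’ although 2 of its 3 genes were. The counts hold only reads that mapped to 1 place in the genome of the cultivar Salinas, so reads shared by near-identical copies are not seen. How well the alleles of each genotype map to that genome was not tested. This limit holds for every gene named here, tandem or not, including genes with few or no reads in a genotype. In the paper's alignment statistics, the share of unmapped reads was higher in every ‘Okeechobee’ library than in any library of 60184. ‘Manatee’ is not listed in those statistics. The part of unmapped reads in the values of any gene was not tested.

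**Figure D3:**
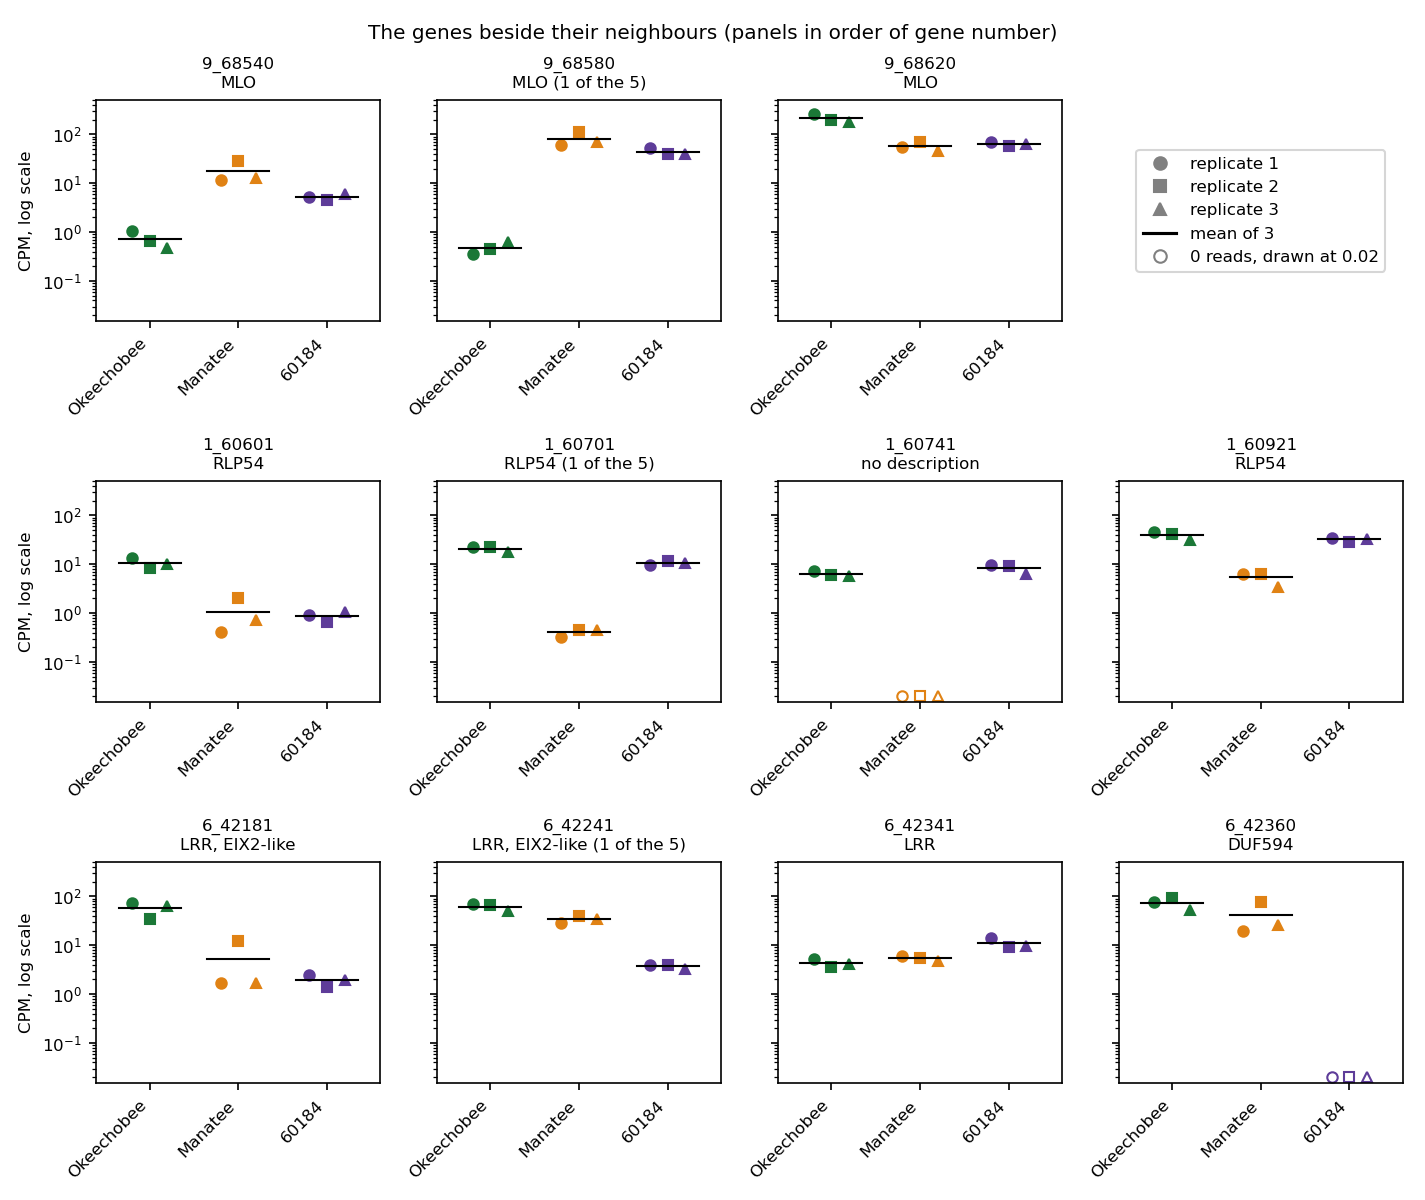
CPM on a log scale (y axis) by genotype (x axis) for the MLO gene, RECEPTOR LIKE PROTEIN 54 and the EIX2-like gene (marked as 1 of the 5) beside neighbours, in order of gene number. The 2 MLO genes on the left are low in ‘Okeechobee’ while the one on the right is high there at 179 to 260 CPM, and open symbols are libraries with 0 reads.

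RECEPTOR LIKE PROTEIN 54 also lay among genes of its own description on chromosome 1. Lsat_1_v5_gn_1_60921, 8 genes after it, had 1375, 1192 and 795 reads in the ‘Okeechobee’ libraries, 194, 182 and 109 in those of ‘Manatee’ and 1031, 942 and 1127 in those of 60184. It too was low in ‘Manatee’, by -2.57 (SE 0.24, adjusted p = 0.00065) against 60184, while ‘Okeechobee’ was higher than ‘Manatee’ by 2.90 (SE 0.27, adjusted p = 0.0021) on the log2 scale. Lsat_1_v5_gn_1_60601, 4 genes before it, had 402, 242 and 258 reads in the ‘Okeechobee’ libraries, 13, 58 and 23 in those of ‘Manatee’ and 27, 21 and 36 in those of 60184. That gene was high in ‘Okeechobee’ alone, by 3.60 (SE 0.29, adjusted p = 2e-04) against 60184 and by 3.34 (SE 0.56, adjusted p = 0.017) against ‘Manatee’. The call against ‘Manatee’ was lost without ‘Okeechobee’ replicate 2 or ‘Manatee’ replicate 3 (highest adjusted p = 0.088), and without ‘Manatee’ replicate 2 the difference was 4.19.

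Summed over these 3 genes, RECEPTOR LIKE PROTEIN 54 reads amounted to 70.8 ± 11.1 CPM in ‘Okeechobee’, 6.86 ± 2.12 CPM in ‘Manatee’ and 43.9 ± 1.998 CPM in 60184 (SD, n = 3 each). The sum was thus lowest in ‘Manatee’, unlike the MLO sum in ‘Okeechobee’. Lsat_1_v5_gn_1_60601 alone was not, with 1.07 CPM in ‘Manatee’ and 0.871 CPM in 60184 (log2 fold change 0.30, SE 0.61, adjusted p = 0.75). Directly beside RECEPTOR LIKE PROTEIN 54 stood a pair of genes without a description, named here after their values were seen. Lsat_1_v5_gn_1_60741, the next gene, had 223, 170 and 145 reads in the ‘Okeechobee’ libraries, 0 in all 3 of ‘Manatee’ and 296, 293 and 211 in those of 60184. With a floor of 3 reads over the 3 ‘Manatee’ libraries, it was at least 192-fold higher in ‘Okeechobee’ and at least 251-fold higher in 60184. Lsat_1_v5_gn_1_60681, the gene before, had reads only in ‘Manatee’ (33, 32 and 14). It was at least 24.6-fold higher there than in ‘Okeechobee’ (adjusted p = 0.022, lost at 0.06 without ‘Okeechobee’ replicate 2) and at least 28.0-fold higher than in 60184.

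Around the EIX2-like gene on chromosome 6, the gene just before it carries the same description. Lsat_1_v5_gn_6_42181 had 2162, 984 and 1667 reads in the ‘Okeechobee’ libraries, 52, 347 and 52 in those of ‘Manatee’ and 73, 45 and 66 in those of 60184. ‘Okeechobee’ stood apart, and the one raised ‘Manatee’ library was replicate 2. The log2 fold change in ‘Okeechobee’ was 4.89 (SE 0.36, adjusted p = 0.00016) against 60184. Against ‘Manatee’ it was 3.49 (SE 0.83, adjusted p = 0.049), a call lost on leaving out any 1 library except ‘Manatee’ replicate 2 (highest adjusted p = 0.14), without which it was 5.09. In ‘Manatee’ against 60184, where the EIX2-like gene itself stood at 3.22, it gave 1.45 (SE 0.80, adjusted p = 0.23).

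Other genes close by did not share one pattern. Lsat_1_v5_gn_6_42341, the gene after it, holds LRR domains and was lower than in 60184 by -1.35 (SE 0.24, adjusted p = 0.0047) in ‘Okeechobee’ and by -1.01 (SE 0.21, adjusted p = 0.017) in ‘Manatee’ on the log2 scale. The following gene, Lsat_1_v5_gn_6_42360, described by a domain of unknown function and named after its values were seen, had 2358, 2684 and 1331 reads in the ‘Okeechobee’ libraries, 620, 2208 and 806 in those of ‘Manatee’ and 0 in all 3 of 60184. It was at least 2418-fold higher in ‘Okeechobee’ and at least 1286-fold higher in ‘Manatee’ than in 60184, the bound for ‘Manatee’ being 734-fold without replicate 2. The libraries of the cultivars overlapped (0.88, SE 0.52, adjusted p = 0.33). Lsat_1_v5_gn_6_42540, 8 genes after the EIX2-like gene and also described as an LRR family protein, was higher in ‘Okeechobee’. Its log2 fold change was 1.66 (SE 0.16, adjusted p = 0.0004) against 60184 and 1.92 (SE 0.21, adjusted p = 0.0034) against ‘Manatee’. In ‘Manatee’ against 60184 it gave -0.22 (SE 0.16, adjusted p = 0.36). Lsat_1_v5_gn_6_42341 and Lsat_1_v5_gn_6_42540 are in none of the lists and were named with their values known.

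Around the short LRR gene no neighbour passed the test in its direction. Of the 10 genes on each side, 10 were tested, of which 0 were higher and 4 lower in ‘Okeechobee’ against 60184 (edgeR; also 0 higher at an unadjusted p under 0.05 and by DESeq2). In ‘Okeechobee’ against ‘Manatee’ 0 passed in either direction in edgeR and in DESeq2, and at an unadjusted p under 0.05 there were 0 higher and 1 lower. Over all tested genes, 16.2% were higher and 15.3% lower in ‘Okeechobee’ against 60184, and 4.54% and 3.74% in ‘Okeechobee’ against ‘Manatee’. With 10 genes tested, nothing is read from these counts. The neighbour in the list of LRR receptor kinases, Lsat_1_v5_gn_7_86401, was lower in ‘Okeechobee’ than in 60184 by -1.40 (SE 0.22, adjusted p = 0.0028). Beside CRK8, 8 neighbours were tested against 60184, of which 3 were higher and 2 were lower in ‘Okeechobee’, and likewise 3 and 2 in ‘Manatee’. No other cysteine-rich receptor kinase was among them. The shares over all tested genes were 16.2% and 15.3% in ‘Okeechobee’ and 10.3% and 8.6% in ‘Manatee’ against 60184.

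Over the neighbourhoods of all 5 genes, 51 of 100 neighbours were tested in ‘Okeechobee’ against 60184, and 12 were higher and 15 lower, beside 31.5% of all tested genes in either direction. In ‘Manatee’ against 60184, 8 were higher and 11 lower of 54, beside 18.9%, and in ‘Okeechobee’ against ‘Manatee’ 8 were higher and 5 lower of 55, beside 8.28%. Shares of 52.9%, 35.2% and 23.6% of tested neighbours therefore passed. Neighbours of 1 gene are not independent samples, and the 5 neighbourhoods were picked with their central gene.

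**Figure D4:**
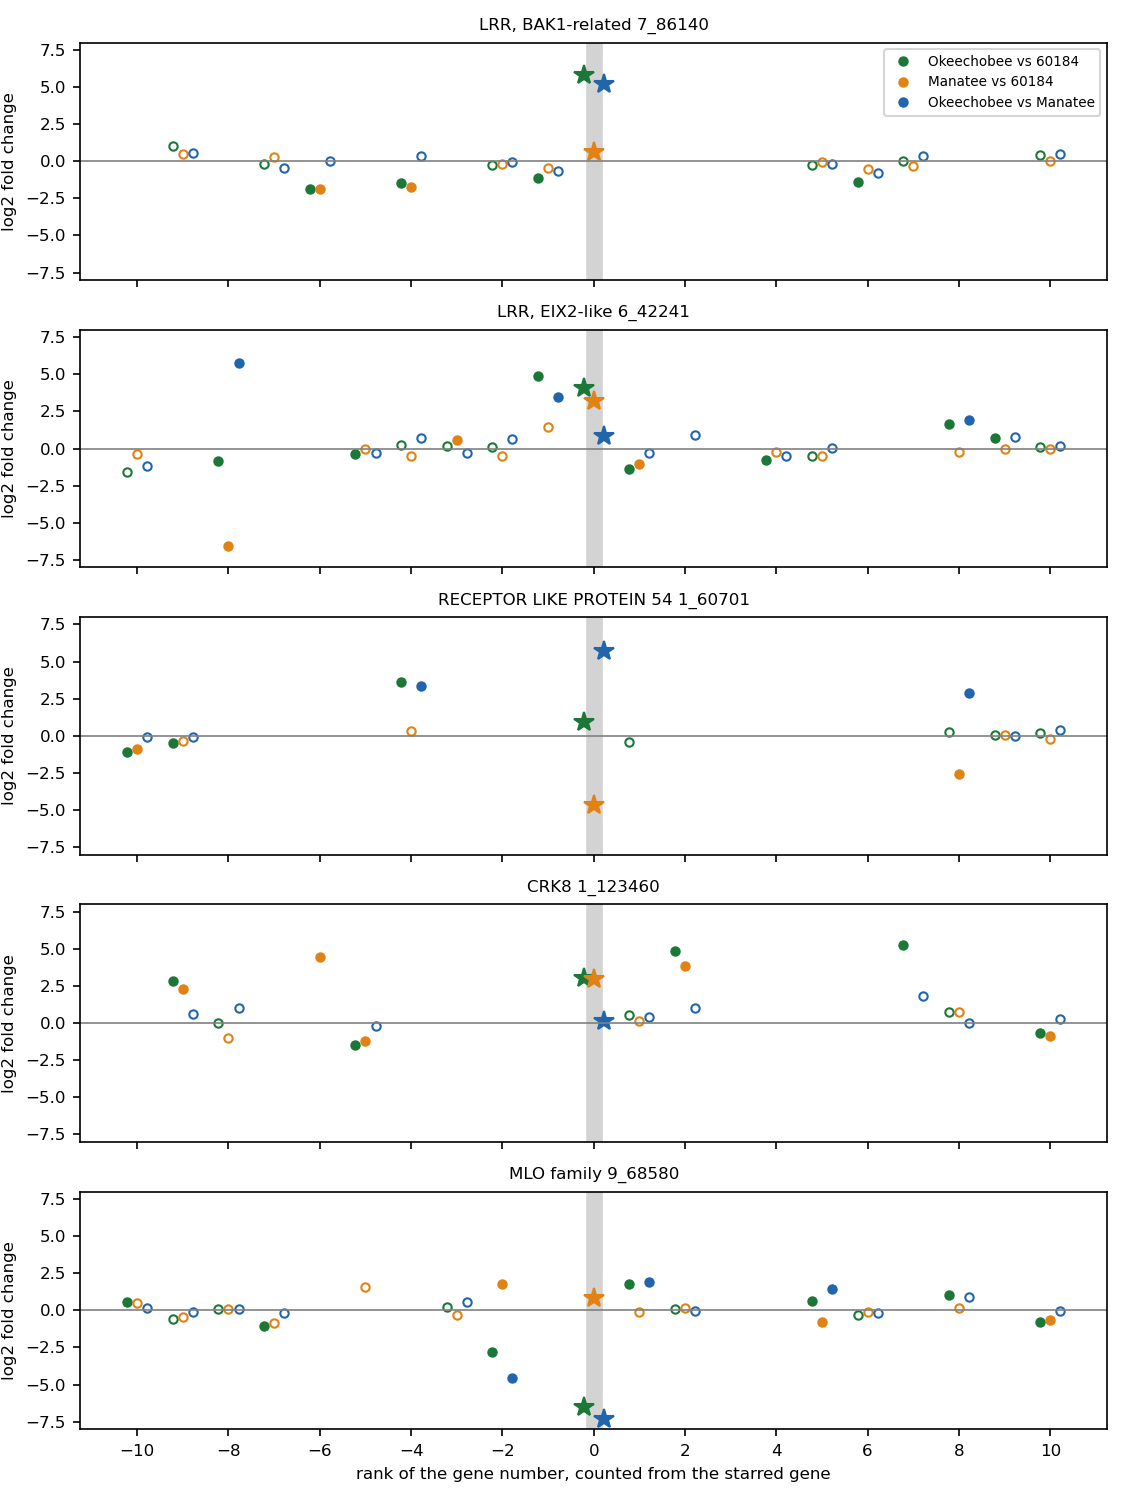
Log2 fold change (y axis) of the tested neighbours by rank of gene number (x axis) around each of the 5 genes (stars), in 3 colours for the 3 comparisons, with filled points past the test and open points not. Genes with 3 reads or fewer in a genotype are left out, and no filled point lies on the side of the star in the panel of the short LRR gene, at 5.80 in ‘Okeechobee’ against 60184.

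Across the whole MLO list, 6 of 8 tested genes were higher in ‘Okeechobee’ than in 60184 and 2 were lower, the MLO gene and its neighbour Lsat_1_v5_gn_9_68540. In ‘Manatee’ against 60184, 6 were higher and 0 lower (edgeR; 0 lower also at an unadjusted p under 0.05 and by DESeq2), and in ‘Okeechobee’ against ‘Manatee’ 2 were higher and 2 lower. These counts include the MLO gene itself. Without it, 6 of 7 were higher and 1 lower in ‘Okeechobee’ against 60184. In ‘Manatee’ against 60184 these were 5 and 0, and in ‘Okeechobee’ against ‘Manatee’ 2 and 1. With it, the list's median log2 fold change was 1.61, 1.78 and 0.00 in these comparisons. The median was 0.01, -0.01 and 0.02 over all tested genes, and 0.41, 0.30 and 0.10 over described genes. The medians of described genes also stand beside those of the lists below. This list, like all others here, was drawn from descriptions given mostly to genes that had been selected on these libraries, so its counts are not independent evidence of a direction. Of all described genes tested, 44.6% were higher and 31.9% lower in ‘Okeechobee’ against 60184, 37.3% and 27.2% in ‘Manatee’ against 60184, and 11.7% and 10.1% in ‘Okeechobee’ against ‘Manatee’. Without any 1 library of 60184 or ‘Manatee’, 3 to 5 MLO genes were higher in ‘Manatee’ against 60184.

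Single MLO genes differed in how far the 2 cultivars stood apart from 60184. Lsat_1_v5_gn_6_30360 had 54, 53 and 52 reads in the ‘Okeechobee’ libraries, 31, 31 and 38 in those of ‘Manatee’ and 0 in all 3 of 60184. It was at least 60.3-fold higher in ‘Okeechobee’ and at least 35.4-fold higher in ‘Manatee’. Lsat_1_v5_gn_5_127760, described as MLO-like protein 11, was higher than in 60184 by 2.42 (SE 0.16, adjusted p = 0.00011) in ‘Okeechobee’ and by 2.17 (SE 0.37, adjusted p = 0.0095) in ‘Manatee’. Lsat_1_v5_gn_1_65921 was higher by 1.80 (adjusted p = 0.0024) and 2.72 (adjusted p = 0.0057) in the same order of cultivars, the value for ‘Manatee’ being 2.10 without its replicate 2, and Lsat_1_v5_gn_4_51700 by 1.48 (adjusted p = 0.0034) and 1.81 (adjusted p = 0.0073). Lsat_1_v5_gn_5_176100, described as MLO-like protein 15, was higher in ‘Okeechobee’ than in 60184 by 1.01 (adjusted p = 0.0012) and than in ‘Manatee’ by 0.71 (adjusted p = 0.044). The call against ‘Manatee’ was lost without any 1 library except ‘Manatee’ replicate 2 (highest adjusted p = 0.18), and that of Lsat_1_v5_gn_5_127760 in ‘Manatee’ without 60184 replicate 2 or 3 (highest adjusted p = 0.052).

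Of the 12 cysteine-rich receptor kinases other than CRK8, 8 were higher and 2 lower in ‘Okeechobee’ against 60184, beside 44.6% and 31.9% of described genes. In ‘Manatee’ against 60184, 9 were higher and 1 lower, beside 37.3% and 27.2%. Between the cultivars, 1 was higher and 2 were lower in ‘Okeechobee’, beside 11.7% and 10.1%. With CRK8 included, the median log2 fold change of the list was 1.30, 1.45 and 0.08 in these comparisons. Leaving out 1 library, 5 to 11 of the 13 genes were higher in ‘Manatee’ against 60184.

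A pair of CRK2 genes on chromosome 3 differed in opposite directions between the cultivars. Lsat_1_v5_gn_3_28920 had 0 reads in all 3 ‘Okeechobee’ libraries, 479, 2361 and 499 in those of ‘Manatee’ and 114, 95 and 105 in those of 60184. It was at least 1038-fold lower in ‘Okeechobee’ than in ‘Manatee’ (adjusted p = 0.018, lost at 0.056 without ‘Okeechobee’ replicate 2, and at least 442-fold without ‘Manatee’ replicate 2) and at least 92.0-fold lower than in 60184. In ‘Manatee’ it was higher than in 60184 by 3.56 (SE 0.71, adjusted p = 0.016), a call lost without any 1 of the libraries of 60184 (highest adjusted p = 0.077), and by 2.27 without ‘Manatee’ replicate 2. Lsat_1_v5_gn_3_28980 had 217, 256 and 457 reads in the ‘Okeechobee’ libraries, 13, 6 and 16 in those of ‘Manatee’ and 8, 9 and 13 in those of 60184. It was higher in ‘Okeechobee’ by 5.17 (SE 0.45, adjusted p = 0.00027) against 60184 and by 4.89 (SE 0.51, adjusted p = 0.0031) against ‘Manatee’.

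**Figure D5:**
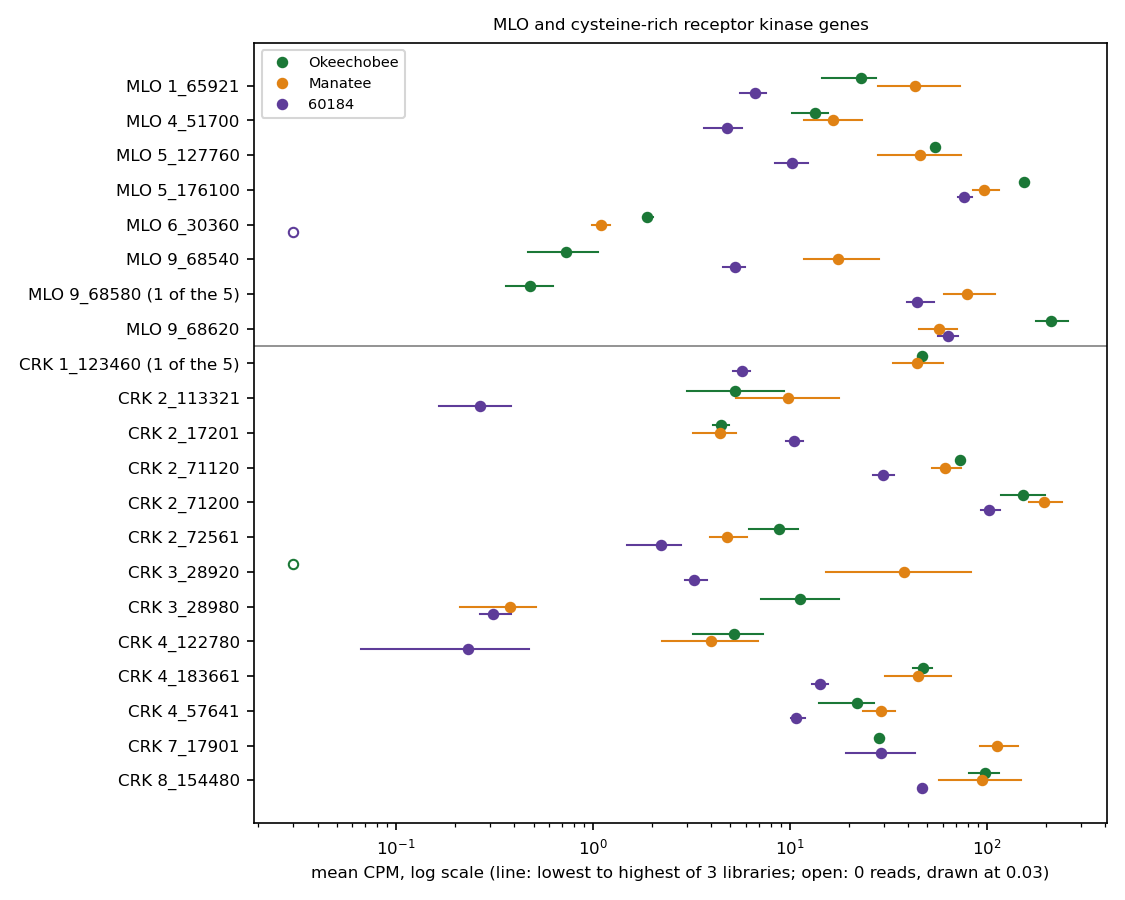
Mean CPM on a log scale (x axis) of the 8 MLO and 13 cysteine-rich receptor kinase genes (y axis) in ‘Okeechobee’, ‘Manatee’ and 60184, with lines over the range of 3 libraries and open circles for groups with 0 reads. CRK8 is low in 60184 at 5.70 CPM, while in ‘Okeechobee’ Lsat_1_v5_gn_9_68580 is at 0.481 CPM and Lsat_1_v5_gn_3_28920 has 0 reads.

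Larger differences than that of CRK8 in both cultivars were seen for Lsat_1_v5_gn_2_113321, which also carries an S-locus lectin description, and Lsat_1_v5_gn_4_122780. Their levels in 60184 rest on few reads, 26 and 23 over its 3 libraries, against 547 for CRK8. Lsat_1_v5_gn_2_113321 was higher than in 60184 by 4.29 (adjusted p = 0.0017) in ‘Okeechobee’ and 5.18 (adjusted p = 0.0024) in ‘Manatee’, and Lsat_1_v5_gn_4_122780 by 4.45 (adjusted p = 0.0021) and 4.06 (adjusted p = 0.011). For Lsat_1_v5_gn_2_113321 these were 3.60 without ‘Okeechobee’ replicate 1 and 4.42 without ‘Manatee’ replicate 2. For Lsat_1_v5_gn_4_122780 they were 5.50 and 5.12 without 60184 replicate 3, and 3.39 in ‘Manatee’ without its replicate 2. Against 60184, ‘Okeechobee’ was higher by 1.998 for Lsat_1_v5_gn_2_72561, 1.73 for Lsat_1_v5_gn_4_183661, 1.30 for Lsat_1_v5_gn_2_71120, 1.07 for Lsat_1_v5_gn_8_154480 and 1.02 for Lsat_1_v5_gn_4_57641. ‘Manatee’ was higher by 1.12 for Lsat_1_v5_gn_2_72561, 1.67 for Lsat_1_v5_gn_4_183661, 1.07 for Lsat_1_v5_gn_2_71120 and 1.45 for Lsat_1_v5_gn_4_57641, while Lsat_1_v5_gn_8_154480 gave 1.03 (adjusted p = 0.064). Lsat_1_v5_gn_7_17901 was higher in ‘Manatee’ than in 60184 by 1.97 (adjusted p = 0.0069), and ‘Okeechobee’ lay below ‘Manatee’ by -1.97 (adjusted p = 0.0022). Lsat_1_v5_gn_2_71200 was higher in ‘Manatee’ by 0.95 (adjusted p = 0.012). Lsat_1_v5_gn_2_17201, described as CRK3, was lower than in 60184 by -1.24 (adjusted p = 0.0019) in ‘Okeechobee’ and by -1.25 (adjusted p = 0.0097) in ‘Manatee’. Without 1 library, the calls in ‘Manatee’ of Lsat_1_v5_gn_2_72561 (highest adjusted p = 0.13), Lsat_1_v5_gn_2_71200 (0.071) and Lsat_1_v5_gn_4_122780 (0.062) were lost, each without 60184 replicate 2 among others. That of Lsat_1_v5_gn_4_183661 in ‘Manatee’ was lost only without 60184 replicate 2 (0.052). The call of Lsat_1_v5_gn_4_57641 in ‘Okeechobee’ was lost (0.069) without ‘Okeechobee’ replicate 2 or 60184 replicate 1 or 2.

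The EIX2-like gene and RECEPTOR LIKE PROTEIN 54 belong to the receptor-like proteins without a kinase. Besides those 2 genes, 20 of 28 tested were higher and 6 lower in ‘Okeechobee’ against 60184, beside 44.6% and 31.9% of described genes, while 5 were higher and 5 lower in ‘Manatee’ against 60184, beside 37.3% and 27.2%. Directly between the cultivars, 16 of 27 were higher and 2 lower in ‘Okeechobee’, beside 11.7% and 10.1%. Of these 27, 15 were higher in ‘Okeechobee’ than in 60184 and also than in ‘Manatee’. The share of described genes higher in both comparisons was not computed, and both use the same ‘Okeechobee’ libraries, so nothing is read from this count. The full list had a median log2 fold change of 2.02, 0.25 and 2.19 in the 3 comparisons, and without any 1 library 11 to 20 of its genes were higher in ‘Okeechobee’ against ‘Manatee’. Lsat_1_v5_gn_6_53901 was higher in ‘Okeechobee’ by 3.08 (adjusted p = 0.00012) against 60184 and by 3.86 (adjusted p = 0.001) against ‘Manatee’, and Lsat_1_v5_gn_8_33880, described as receptor like protein 13, by 3.09 (adjusted p = 0.00014) and 1.88 (adjusted p = 0.028). The call of Lsat_1_v5_gn_8_33880 against ‘Manatee’ was lost without any 1 library except ‘Manatee’ replicate 2 (highest adjusted p = 0.12). In the other direction, Lsat_1_v5_gn_6_45160 lay below 60184 by -3.76 (adjusted p = 0.00056) in ‘Okeechobee’ and by -4.11 (adjusted p = 0.00016) in ‘Manatee’. Lsat_1_v5_gn_0_36101, described as EIX2, had 1 read in the ‘Okeechobee’ libraries, 0 in those of ‘Manatee’ and 425 in those of 60184.

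Of the receptor kinases with LRR domains, 32 of 54 were higher and 19 lower in ‘Okeechobee’ against 60184, beside 44.6% and 31.9% of described genes, and 22 and 10 in ‘Manatee’ against 60184, beside 37.3% and 27.2%. Lsat_1_v5_gn_2_122160, described like the rice resistance kinase Xa21, had 1901 reads in the ‘Okeechobee’ libraries, 2498 in those of ‘Manatee’ and 6 in those of 60184 (log2 fold change in ‘Okeechobee’ 8.39, adjusted p = 6.8e-05, and 9.27 without 60184 replicate 3). Lsat_1_v5_gn_4_26820 was higher in ‘Okeechobee’ by 3.17 (adjusted p = 7.2e-05). Lsat_1_v5_gn_5_87481, related to FEI 1, fell to 5 reads in ‘Okeechobee’ and 0 in ‘Manatee’, against 2108 in 60184 (adjusted p = 4.4e-05 in ‘Okeechobee’), and Lsat_1_v5_gn_8_2560, described as PXL1, was lower in ‘Okeechobee’ by -3.34 (adjusted p = 7.5e-05).

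Lectin and malectin receptor kinases numbered 47 higher and 11 lower of 62 in ‘Okeechobee’ against 60184, beside the same 44.6% and 31.9%, with a median of 1.49. Lsat_1_v5_gn_8_110421, described as FERONIA, a receptor of RALF peptides in Arabidopsis, had 2466 reads in the ‘Okeechobee’ libraries, 2273 in those of ‘Manatee’ and 0 in those of 60184, at least 936-fold higher in ‘Okeechobee’. Lsat_1_v5_gn_1_86480 was lower by -6.77 (adjusted p = 0.00011, -7.41 without ‘Okeechobee’ replicate 1) and Lsat_1_v5_gn_5_55541 by -5.95 (adjusted p = 6.3e-05). Wall-associated kinases, which bind pectin, were higher in 7 of 9 cases and lower in 0 (edgeR; 0 also at an unadjusted p under 0.05 and by DESeq2), and Lsat_1_v5_gn_8_32880 gave 2.20 (adjusted p = 0.00021) and Lsat_1_v5_gn_8_143940 2.21 (adjusted p = 0.00066). Of 8 LysM proteins, which bind chitin or related sugars, 5 were higher and 2 lower. The wall-associated kinase and LysM counts stand beside the same 44.6% and 31.9% of described genes. Lsat_1_v5_gn_4_64720 rose by 3.69 (adjusted p = 0.00011) and the LYM2-like Lsat_1_v5_gn_8_120300 by 1.76 (adjusted p = 0.00045), while Lsat_1_v5_gn_8_20440 gave -2.33 (adjusted p = 0.0011) and Lsat_1_v5_gn_4_98620 -0.88 (adjusted p = 0.0019).

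Signalling genes below the receptors went both ways, as did described genes at large. In ‘Okeechobee’ against 60184, 12 of 20 early signalling genes were higher and 6 lower, beside 44.6% and 31.9% of described genes. The NADPH oxidase gene Lsat_1_v5_gn_3_11620, related to RBOHF, rose by 2.34 (adjusted p = 0.00011) and the receptor-like cytoplasmic kinase gene Lsat_1_v5_gn_4_94081 (PBL12) by 3.38 (adjusted p = 0.00023). Lsat_1_v5_gn_5_55040, described as PBL27, which in Arabidopsis links a chitin receptor to MAP kinases, had 0 reads in the ‘Okeechobee’ libraries, 1 in those of ‘Manatee’ and 2174 in those of 60184, at least 637-fold lower in ‘Okeechobee’. Among genes described as pathogenesis-related, 7 of 14 were higher and 5 lower, beside the same 44.6% and 31.9%. The chitinase gene Lsat_1_v5_gn_2_29401 gave 2.28 (adjusted p = 0.0025) and Lsat_1_v5_gn_5_63420, a lectin kinase that carries a thaumatin domain in its description, 4.29 (adjusted p = 0.0024, 5.47 without 60184 replicate 2). Lsat_1_v5_gn_5_111400, a basic PR-1 gene, was lower by -4.33 (adjusted p = 0.0061, -3.12 without 60184 replicate 1), and so was the transcription factor gene Lsat_1_v5_gn_5_177360 (PTI6) by -2.47 (adjusted p = 0.00027).

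Of all described genes tested, 76.5% passed in ‘Okeechobee’ against 60184, 64.5% in ‘Manatee’ against 60184 and 21.8% in ‘Okeechobee’ against ‘Manatee’. The 10 lists together hold 212 genes, not all of them tested in each comparison. Of these, 194, 131 and 63 passed in the same order. Counts that involve ‘Manatee’ were less firm, with 60 to 133 and 30 to 93 genes when 1 library was left out, than the first, with 168 to 187. The lowest were without 60184 replicate 2 in ‘Manatee’ against 60184, and without ‘Manatee’ replicate 3 in ‘Okeechobee’ against ‘Manatee’. The lists were not tested as sets.

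The genes with the most similar profile to each of the 5 were found by the root mean square (RMS) difference of centred log2 CPM over the 9 libraries, among 3634 described genes with a mean of at least 100 reads in 1 genotype. Similarity here is a description over 9 libraries that fall into 3 genotypes. The RMS difference grows with a gene's own spread, so it ranks partners of 1 gene and not the 5 genes against each other. The partners of CRK8 were a pair of histone H4 genes, of which Lsat_1_v5_gn_8_79040 differed by 0.18 and Lsat_1_v5_gn_8_78900 by 0.23. The first averaged 100 ± 9.65 CPM in ‘Okeechobee’, 89.0 ± 21.6 CPM in ‘Manatee’ and 10.1 ± 0.529 CPM in 60184 (SD, n = 3 each).

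For RECEPTOR LIKE PROTEIN 54, the DNA helicase gene Lsat_1_v5_gn_6_75820 (RMS difference 0.27) had 113, 115 and 89 reads in the ‘Okeechobee’ libraries, 0 in all 3 of ‘Manatee’ and 66, 70 and 59 in those of 60184, and the boron transporter gene Lsat_1_v5_gn_3_39881 followed at 0.40. The EIX2-like gene was matched by Lsat_1_v5_gn_5_71300, a gene related to lesion formation (0.32), and by the jasmonate repressor gene Lsat_1_v5_gn_1_37841 (0.34), described as JAZ1. Lsat_1_v5_gn_1_37841 averaged 520 ± 184 CPM in ‘Okeechobee’, 314 ± 127 CPM in ‘Manatee’ and 43.1 ± 4.68 CPM in 60184 (SD, n = 3 each), and its replicates were more spread than those of the EIX2-like gene.

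The partners of the MLO gene and the short LRR gene were at or near 0 reads in the low genotypes. Closest to the MLO gene were the oxygenase gene Lsat_1_v5_gn_0_19261 (0.44), with 1, 2 and 5 reads in the ‘Okeechobee’ libraries, and Lsat_1_v5_gn_1_102140 (0.50), a TIR-type disease resistance gene with 0, 0 and 4 reads there. Those of the short LRR gene were the FERONIA-like gene Lsat_1_v5_gn_4_167081 (0.46), with 155, 117 and 80 reads in the ‘Okeechobee’ libraries and none in those of ‘Manatee’, and the ATPase gene Lsat_1_v5_gn_8_130720 (0.47). Since the scale adds a prior count of 2, matches at low counts are drawn closer together.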

How the data were processed

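RNA-seq of mature leaves gave 9 libraries, 3 per genotype. After adapter trimming (Cutadapt), STAR alignment to the v5 genome of Lactuca sativa cv. Salinas and removal of PCR duplicates, uniquely mapped reads were assigned to genes by HTSeq, and the authors deposited these raw counts. Reads outside genes (5.04% to 11.05%), ambiguous (1.1% to 1.34%) or not unique (3.83% to 8.03%) were left out. Whether counting used strand is not given in the sources used here. Nothing states that replicates were grown apart, so p-values measure the spread between these samples.

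Each comparison used its 6 libraries in edgeR 4.0.16 (R 4.3.3): a gene entered when 3 or more libraries had 10 counts or more, followed by TMM and the robust quasi-likelihood F test, with Benjamini-Hochberg adjustment over all tested genes and a threshold of 0.05. Tables were made with pandas 2.3.3 in Python 3.11.15 and figures with matplotlib 3.10.9. An SE is the log2 fold change divided by the square root of its F statistic. The fit was also run on counts simulated from the model it assumes, with dispersions estimated from these libraries. That run cannot show how the fit handles libraries that depart from the model, and it is not used as support here.

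Gene lists came from words in descriptions in the study's supplementary tables, and neighbours are the 10 genes on each side by gene number. Named are the 5 genes, neighbours in a list, all MLO and CRK genes, for other lists the 2 higher and 2 lower genes with the smallest p in ‘Okeechobee’ against 60184, and the 2 most similar genes per gene. Neighbours outside the lists were named with their values known. Genes, lists and tests were chosen with earlier results of these data known. Alternatives were DESeq2 1.42.0, other scalings and filters, 1 model of all 9 libraries, a replicate block and leaving out each library.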

Additional observations from a re-analysis of the deposited data

How the results depend on the processing

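All 15 log2 fold changes of the 5 genes stayed within 1 SD of the replicates under DESeq2, 3 other scalings, both other filters, the model of all 9 libraries, the replicate block and without each library. The numbers of genes passing were less steady. In ‘Okeechobee’ against ‘Manatee’ 1817 genes passed at an adjusted p under 0.05, but 3654 under DESeq2 and 3129 in 1 model of all 9 libraries. Leaving out 1 library gave 4073 to 6858 genes in ‘Okeechobee’ against 60184 (6969 with all), 1232 to 4381 in ‘Manatee’ against 60184 (4176 with all) and 430 to 2152 in ‘Okeechobee’ against ‘Manatee’, and 168 to 187, 60 to 133 and 30 to 93 genes of the 10 lists, fits that hold fewer samples. Equal replicate numbers did not pair the libraries: same-numbered libraries had deviations correlated between -0.11 and 0.10, -0.21 and 0.01, and -0.30 and 0.28 in these comparisons. With the replicate block, 5886, 2320 and 596 genes passed, and 188, 97 and 34 genes of the lists. Of the calls of named genes, 46 of 47, 22 of 39 and 8 of 21 held without each library in turn. Lsat_1_v5_gn_8_85260, Lsat_1_v5_gn_6_42341 and Lsat_1_v5_gn_6_42540 are not in these counts. In most lists the genes were named for the smallest p in ‘Okeechobee’ against 60184. That choice favoured the first share, which is not comparable with the others. Shares of neighbours passing stayed within 1.5 times with 5 or 20 genes on each side. RefSeq descriptions as another source of lists were not run, since no identifier matched. The lowest levels of the 5 genes rest on 10 to 16 reads a library. The bounds of genes at 0 reads in a genotype were also computed without each library, a choice made after seeing the data, and 2 moved by over 1.5 times.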
